A study of Mus musculus with 9 samples.

Results

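The eicosanoid and platelet-activating factor (PAF) pathway was followed through 10 genes, Pla2g7, Pla2g4a, Alox5, Alox5ap, Lta4h, Ltc4s, Ptgs1, Ptgs2, Ptges and Ptafr, in splenic dendritic cells (DC) of mice. Members were found by the gene symbol of the array's annotation, using probe sets that carry exactly 1 symbol. Of the 10 genes, 8 were measured, by 13 probe sets, among 12393 genes in all, while Alox5 and Ptgs1 have no such probe set and are not analysed here. Pla2g7 was chosen for its fall in earlier results of these data, so its values are a description without a test. The data were 9 one-colour Affymetrix arrays, 3 from cells left untreated, 3 from cells given trichostatin A (TSA) and 3 from cells given butyrate. TSA and butyrate both inhibit histone deacetylases, and the comparison asks how this changes gene expression in DC. Per the labels' protocols, all 3 groups shared 1 source of cells, the spleens of mice aged 6 to 8 weeks that carried B16 tumours expressing Flt3L, a growth factor that expands DC, and the cells were taken on CD11c magnetic beads. Neither dose nor duration is given, nor whether replicates came from separate mice or cultures, so p-values measure the spread between these samples, which may be technical.

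The pathway turns membrane phospholipid into short-lived lipid signals. Cytosolic phospholipase A2, encoded by Pla2g4a, cuts arachidonic acid from the membrane and leaves a lysophospholipid from which PAF can be made. Lipoxygenase with its partner FLAP (Alox5ap) carries arachidonic acid to leukotriene A4, which leukotriene A4 hydrolase (Lta4h) turns into the chemoattractant leukotriene B4 and leukotriene C4 synthase (Ltc4s) into the cysteinyl leukotrienes. Cyclooxygenases and prostaglandin E synthase (Ptges) make prostaglandins from the same substrate. Pla2g7 encodes a secreted acetylhydrolase that inactivates PAF, whose receptor is Ptafr. In DC these lipids are known for effects on migration and cytokine output.

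The genomic windows below show the 250 bases before the RefSeq start site (build GRCm38.p6) of the member with the lowest levels after treatment relative to untreated, Pla2g7, and of the 3 members that rose with both treatments, Lta4h, Pla2g4a and Ltc4s. Capitals mark matches to 7 motifs searched on both strands, and all else is in lower case. The Pla2g7 window is chr17:43568201-43568450 on the plus strand, upstream of a start site that lies inside the annotated span of the gene, whose first base is 43567994, and the Lta4h window is chr10:93453146-93453395 on the plus strand. The Pla2g4a window, that of the upstream of 2 start sites, is chr1:149961291-149961540 on the minus strand, and the Ltc4s window is chr11:50238533-50238782 on the minus strand.
Pla2g7: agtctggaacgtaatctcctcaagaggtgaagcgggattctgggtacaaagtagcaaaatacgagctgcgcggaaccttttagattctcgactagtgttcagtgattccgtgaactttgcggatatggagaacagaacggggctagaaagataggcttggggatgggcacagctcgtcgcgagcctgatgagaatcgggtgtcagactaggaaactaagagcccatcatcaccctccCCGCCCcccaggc
Lta4h: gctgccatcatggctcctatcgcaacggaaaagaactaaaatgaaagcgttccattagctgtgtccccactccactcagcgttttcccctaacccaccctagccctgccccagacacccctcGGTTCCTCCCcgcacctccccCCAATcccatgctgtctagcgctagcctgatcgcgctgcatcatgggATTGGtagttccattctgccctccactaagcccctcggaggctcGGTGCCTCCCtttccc
Pla2g4a: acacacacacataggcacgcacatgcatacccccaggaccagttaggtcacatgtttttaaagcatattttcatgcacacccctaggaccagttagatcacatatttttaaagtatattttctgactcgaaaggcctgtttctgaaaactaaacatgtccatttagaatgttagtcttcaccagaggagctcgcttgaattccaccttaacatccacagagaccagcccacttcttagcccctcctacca
Ltc4s: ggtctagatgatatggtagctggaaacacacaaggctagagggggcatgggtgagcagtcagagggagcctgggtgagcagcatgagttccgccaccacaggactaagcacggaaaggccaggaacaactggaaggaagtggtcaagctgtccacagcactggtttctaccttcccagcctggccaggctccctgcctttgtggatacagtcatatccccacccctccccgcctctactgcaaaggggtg

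The motifs were the GC box GGGCGG, the CCAAT box CCAAT, the TATA box TATAAA, the AP-1 motif TGANTCA, the CRE TGACGTCA, the NF-kB pattern GGGNNNNNCC and the ETS core GAGGAA. The Pla2g7 window held 1 GC box, on the minus strand, at bases 13 to 8 before the start site. Lta4h held 2 CCAAT boxes, 2 matches to the NF-kB pattern and 1 ETS core, and the ETS core lies inside an NF-kB match. The windows shown for Pla2g4a and Ltc4s held no match to these letters. That of the other Pla2g4a start site, not shown, held 1 TATA box. Among 32851 windows of the same length, 32.7% held a GC box, 33.8% a CCAAT box, 45.8% the NF-kB pattern and 23.3% the ETS core. TATA, AP-1 and CRE motifs were found in 12.4%, 6.75% and 1.55% of windows. The matches are descriptions of the letters and not binding sites.

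Levels are deposited log2 values, so a difference of 1 is a factor of 2, and they ran from 3.03 to 15.2. Array medians lay between 6.698 and 6.746, and within a group any pair of arrays had r of 0.997 to 0.998 across genes, which are not independent replicates. A gene was called at a Benjamini-Hochberg adjusted p under 0.05 over all 12393 genes in limma's moderated test. The error after a difference is its standard error in that fit, at n = 3 per group, and the number of arrays limits the precision. Of the 9 measured DC markers, Itgax (CD11c) had an untreated level of 9.24 and Cd74 one of 14.39. Of the 9, 6 fell with each treatment, where 21% of all genes fell with TSA and 24.8% with butyrate. With butyrate 1 rose, where 33.6% of all genes rose. Neutrophil markers were also bright, with S100a8 at 13.83 in untreated cells. The 3′ minus 5′ signal of beta-actin, a measure of RNA integrity, was 0.37 to 0.50 on untreated, 0.59 to 0.67 on TSA and 0.64 to 0.71 on butyrate arrays; its part in the results was not tested. Hybridization spike-ins read 10.37 ± 0.075, 10.38 ± 0.030 and 10.78 ± 0.063 (SD, n = 3) on untreated, TSA and butyrate arrays. Scaling to them turns the median change of all genes with butyrate from 0.08 to -0.33, and scaling to the poly-A spike-ins turns it to -0.27, so changes with butyrate are relative to the bulk of genes.

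Pla2g7 lay at 12.33 ± 0.060 (SD, n = 3) in untreated DC, at 8.83 ± 0.19 with TSA and at 7.43 ± 0.11 with butyrate, which is 11.3-fold and 29.9-fold below untreated. The gene spans chr17:43567994-43612202 and was read by 1 probe set. The untreated arrays read 12.36, 12.37 and 12.26, the TSA arrays 9.05, 8.73 and 8.72, and the butyrate arrays 7.31, 7.51 and 7.47. No groups overlapped, and every butyrate array lay below every TSA array. The log2 differences from untreated were -3.50 ± 0.092 for TSA and -4.90 ± 0.092 for butyrate, and that of butyrate minus TSA was -1.40, a factor of 2.64. Counting from the largest fall, Pla2g7 stood 6th with TSA, 1st with butyrate and 8th between butyrate and TSA. As the gene was chosen for its fall, these ranks are a description only. With hybridization spike-ins as the scale the differences were -3.51 and -5.32, and with poly-A spike-ins -3.53 and -5.26.

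**Figure D1:**
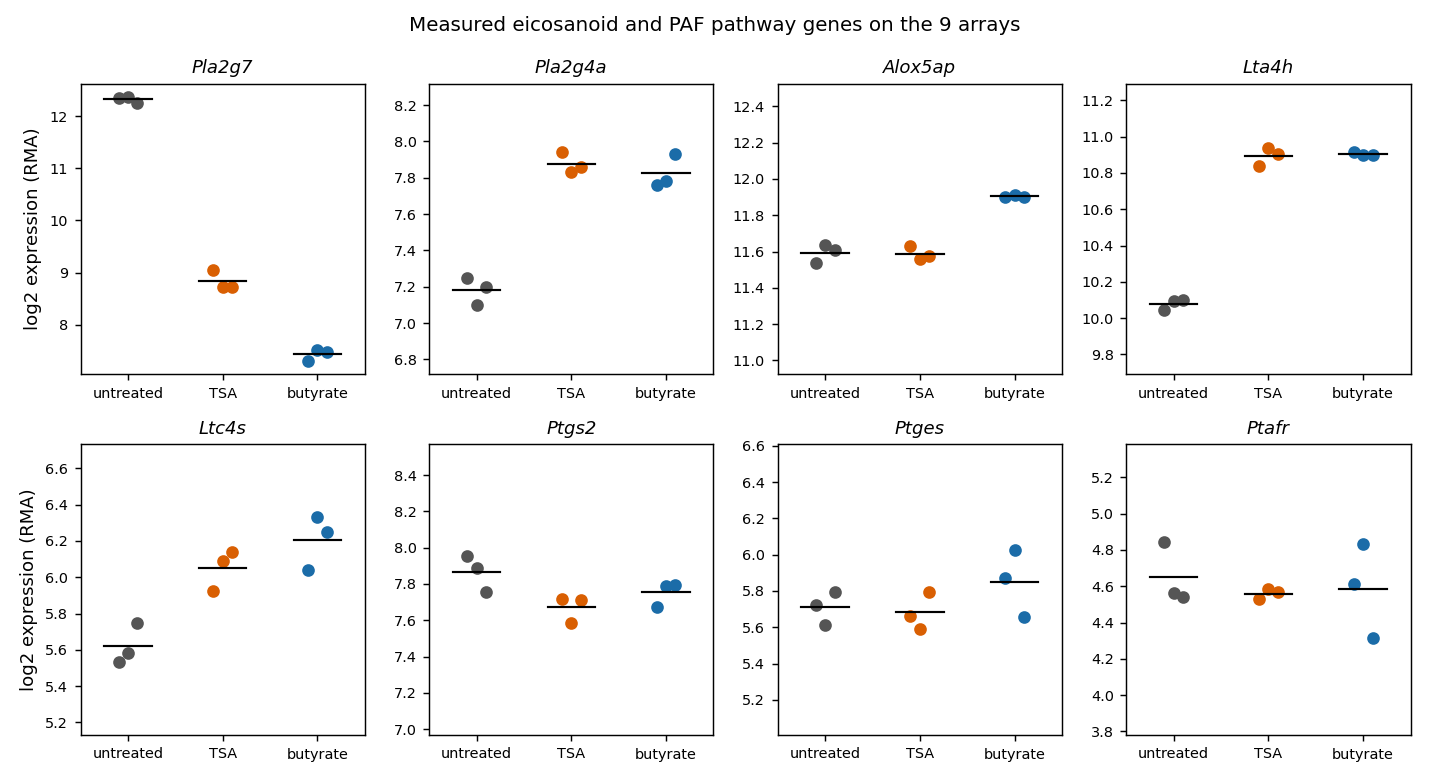
Log2 expression of the 8 measured pathway genes, 1 panel each, with 1 point per array and a bar at each group's mean; panels have separate y axes. Pla2g7 drops from 12.33 through 8.83 to 7.43, whereas Lta4h sits near 10.1 in untreated cells and near 10.9 with either treatment (the difference between treatments turns below 0 when scaled to spike-ins).

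The 5 genes whose levels over the 9 arrays lay nearest to those of Pla2g7, each centred on its own untreated mean, were Clec4n, Il12b, Papss2, Cxcl5 and Slc7a11. Their Euclidean distances over the 9 arrays were 0.596, 1.41, 1.43, 1.92 and 1.99 log2 units. Clec4n, which encodes the fungal receptor Dectin-2, had differences of -3.62 with TSA, at 7.08 against 10.69, and -4.64 with butyrate, at 6.05. Il12b, which encodes the p40 chain of interleukin 12, had differences of -4.00 and -4.29. The sulphate-donor synthase gene Papss2 had differences of -3.71 and -4.12, and the chemokine gene Cxcl5 had -3.71 and -3.83. Slc7a11, a cystine transporter, was at -2.65 with TSA and -4.15 with butyrate, and its difference between butyrate and TSA was -1.502, beside -1.40 for Pla2g7. The resemblance is a description over arrays that include the shared untreated ones.

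**Figure D2:**
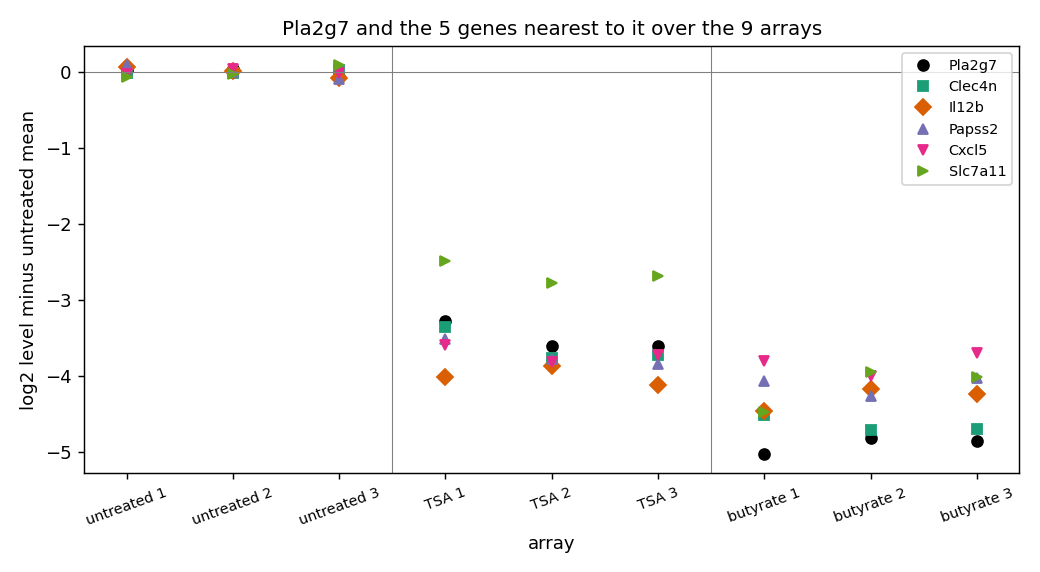
Log2 level minus the untreated mean on each of the 9 arrays for Pla2g7 and the 5 genes nearest to it. Clec4n tracks Pla2g7 most closely, at -3.62 against -3.50 for the TSA means and -4.64 against -4.90 for the butyrate means.

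Markers of macrophages and monocytes, cells in which Pla2g7 is also known to be active, were lower in the same samples. Of 13 measured, 13 fell with TSA and 12 with butyrate, where 21% and 24.8% of all genes fell, with median differences of -0.62 and -0.73. Their mean log2 level was 9.004 to 9.123 on untreated, 8.11 to 8.18 on TSA and 7.78 to 7.95 on butyrate arrays, and their summed linear level 13158 to 13902, 8249 to 8993 and 7572 to 8051. Their untreated levels ran from 6.27 for Fcgr1 and Mertk to 12.20 for Lyz2. The largest fall with butyrate was that of Spic, a factor of red pulp macrophages, at -2.89, followed by Cd14 at -2.38 and Ccr2 at -2.16. Ccr2 fell by 0.44 with TSA and lay at -1.72 between butyrate and TSA. The part of these cells in the Pla2g7 levels was not tested, and in bulk RNA fewer cells of a type and less RNA per cell cannot be told apart.

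Pla2g4a, the phospholipase that starts the pathway, rose with both treatments, by 0.69 ± 0.064 with TSA (1.62-fold, adjusted p = 6.81e-06) and by 0.64 ± 0.064 with butyrate (1.56-fold, adjusted p = 1.02e-05). The untreated arrays read 7.25, 7.10 and 7.20, the TSA arrays 7.94, 7.83 and 7.86, and the butyrate arrays 7.76, 7.78 and 7.93. All 6 treated arrays lay above all 3 untreated ones, and the treated groups overlapped. Butyrate minus TSA was -0.05, with a 95% interval of -0.19 to 0.09 (adjusted p = 0.564). The gene lies at chr1:149829618-149961290 and has 1 probe set. Scaled to the poly-A spike-ins the butyrate rise was 0.29 and no longer called (adjusted p = 0.245). Scaled to the hybridization spike-ins it was 0.23 and called (adjusted p = 0.0266), while butyrate then fell below TSA, by 0.45 (adjusted p = 0.000148).

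In the leukotriene branch, Lta4h and Ltc4s rose with both treatments and Alox5ap rose with butyrate, a rise that turned below 0 on the spike-in scales. Lta4h, at chr10:93453396-93484896, is read here from the brightest of its 3 probe sets, whose mean rose by 0.39 with TSA (adjusted p = 4.77e-05) and 0.43 with butyrate (adjusted p = 2.19e-05). Its arrays read 10.04, 10.09 and 10.10 untreated, 10.84, 10.94 and 10.90 with TSA, and 10.92, 10.90 and 10.90 with butyrate. Every treated array lay above every untreated one, whereas the treatments overlapped. The rises were 0.81 ± 0.046 with TSA (1.76-fold, adjusted p = 2.21e-07) and 0.83 ± 0.046 with butyrate (1.77-fold, adjusted p = 1.41e-07). Butyrate minus TSA was 0.01, with a 95% interval of -0.09 to 0.12 (adjusted p = 0.858), and turned to -0.39 when scaled to hybridization spike-ins and -0.32 when scaled to poly-A spike-ins. Both rises stayed called on these scales, at 0.41 and 0.47 for butyrate.

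The probe sets of Lta4h differed in size of change. The values above come from the brightest of 3. A second, with an untreated level of 6.23, rose by 0.30 (adjusted p = 0.0125) and 0.26 (adjusted p = 0.0225), adjusted over all 22626 probe sets, of which 42.9% were called with TSA and 53.6% with butyrate. The third, with an untreated level of 6.21, had 0.06 and 0.20 and was not called (adjusted p = 0.587 and 0.0559). The sign was the same in all 3 probe sets. Where in the gene the probes lie is not analysed here.

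Ltc4s, at chr11:50236461-50238532, is the synthase that commits leukotriene A4 to the cysteinyl branch. The untreated arrays read 5.53, 5.58 and 5.75, the TSA arrays 5.93, 6.09 and 6.14, and the butyrate arrays 6.04, 6.33 and 6.25. Every treated array exceeded every untreated one, and the treated groups overlapped. The rises were 0.43 ± 0.090 with TSA (adjusted p = 0.00229) and 0.58 ± 0.090 with butyrate (adjusted p = 0.000256). Butyrate minus TSA was 0.15 (95% interval -0.05 to 0.35, adjusted p = 0.210) and turned to -0.25 with hybridization spike-ins as the scale (adjusted p = 0.0374). The butyrate call was lost when scaled to hybridization spike-ins (0.17, adjusted p = 0.148) or poly-A spike-ins (0.23, adjusted p = 0.357), and the TSA call on the latter (0.40, adjusted p = 0.137).

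Alox5ap encodes FLAP, the membrane protein that presents arachidonic acid to 5-lipoxygenase, and lies at chr5:149265004-149288153. It read 11.54, 11.63 and 11.61 untreated, 11.63, 11.56 and 11.57 with TSA, and 11.90, 11.91 and 11.90 with butyrate. The untreated and TSA arrays overlapped and the butyrate arrays stood above both. The TSA difference was -0.01 ± 0.047 (95% interval -0.11 to 0.10, adjusted p = 0.931). With butyrate the gene rose by 0.31 ± 0.047 (1.24-fold, adjusted p = 0.000217) and lay 0.32 ± 0.047 above TSA (adjusted p = 0.000624), but both differences turned below 0 with hybridization spike-ins (-0.10 and -0.082) and poly-A spike-ins (-0.043 and -0.0099) as the scale.

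Neutrophils, mast cells and platelets also carry parts of this branch, and their markers were read in the same samples. Of all genes, 21% fell and 26.3% rose with TSA, and 24.8% fell and 33.6% rose with butyrate. Of 9 neutrophil markers, 7 fell with TSA, while 6 fell and 2 rose with butyrate, with median differences of -0.73 and -0.44. Their summed linear level ran from 39180 to 40271 untreated, 30952 to 32338 with TSA and 37457 to 37969 with butyrate. Of 9 mast cell and basophil markers, 2 fell with TSA, and 1 fell and 2 rose with butyrate, with median differences of 0.0051 and 0.021. Their summed level was 1499 to 1546 untreated, 1016 to 1055 with TSA and 1024 to 1083 with butyrate. Of 7 platelet markers, 2 fell with TSA, and 2 fell and 3 rose with butyrate, with median differences of 0.0084 and 0.19 and summed levels of 1466 to 1510, 736 to 758 and 806 to 914. The brightest untreated marker of the mast cell list, Kit, fell by 0.84 and 1.01, and that of the platelet list, Ppbp, fell with differences of -3.38 and -3.35, while the medians of these lists were above 0. The part of these 3 lists in the levels of the members was not tested.

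In the prostaglandin branch, the inducible cyclooxygenase gene Ptgs2 fell slightly with TSA and Ptges passed the test in no comparison. Ptgs2, at chr1:150100031-150108234, read 7.95, 7.89 and 7.76 untreated, 7.72, 7.58 and 7.71 with TSA, and 7.68, 7.79 and 7.80 with butyrate. The TSA arrays lay just below the untreated ones, and the butyrate arrays overlapped both. The TSA difference was -0.20 ± 0.066 (1.14-fold lower, adjusted p = 0.0329). It lost its call without untreated replicate 1 (adjusted p = 0.114), untreated replicate 2 (0.0862) or TSA replicate 2 (0.129), with the replicate number as a block (0.0607) and on both spike-in scales (0.0654 and 0.588). The butyrate difference was -0.11 ± 0.066, with a 95% interval of -0.26 to 0.04 (adjusted p = 0.169). On the spike-in scales it was larger and called, at -0.53 (adjusted p = 1.96e-05) and -0.47 (adjusted p = 0.0451). A dimmer probe set of Ptgs2 had -0.21 (adjusted p = 0.0532) and -0.12 (adjusted p = 0.210).

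Ptges encodes the inducible synthase that makes prostaglandin E2 and lies at chr2:30889471-30931020. It read 5.72, 5.61 and 5.79 untreated, 5.66, 5.59 and 5.80 with TSA, and 5.87, 6.02 and 5.66 with butyrate, and all groups overlapped. The differences were -0.03 ± 0.094 with TSA (95% interval -0.23 to 0.18, adjusted p = 0.859) and 0.14 ± 0.094 with butyrate (95% interval -0.07 to 0.35, adjusted p = 0.224). Without butyrate replicate 3 the butyrate difference was 0.24 and called (adjusted p = 0.0366), and on the hybridization scale over all arrays it was -0.28 (adjusted p = 0.0120). A further probe set of Ptges had 0.05 (adjusted p = 0.757) and 0.22 (adjusted p = 0.115).

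Ptafr, the receptor for PAF, lies at chr4:132564067-132582683 and was read near the lower end of the arrays, whose 25th percentile was 4.97 to 5.10. It read 4.85, 4.56 and 4.54 untreated, 4.53, 4.58 and 4.57 with TSA, and 4.61, 4.83 and 4.32 with butyrate, and the groups overlapped. The differences were -0.09 ± 0.12 with TSA (95% interval -0.36 to 0.18, adjusted p = 0.592) and -0.06 ± 0.12 with butyrate (95% interval -0.33 to 0.21, adjusted p = 0.678). The dimmer probe set had -0.05 with TSA (adjusted p = 0.763) and 0.28 with butyrate (adjusted p = 0.0559), and there butyrate exceeded TSA by 0.33 (adjusted p = 0.0482), a comparison in which 29.6% of all probe sets were called. On the hybridization scale the brighter probe set fell by 0.48 with butyrate (adjusted p = 0.000223). Differences at such levels understate changes in RNA.

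**Figure D3:**
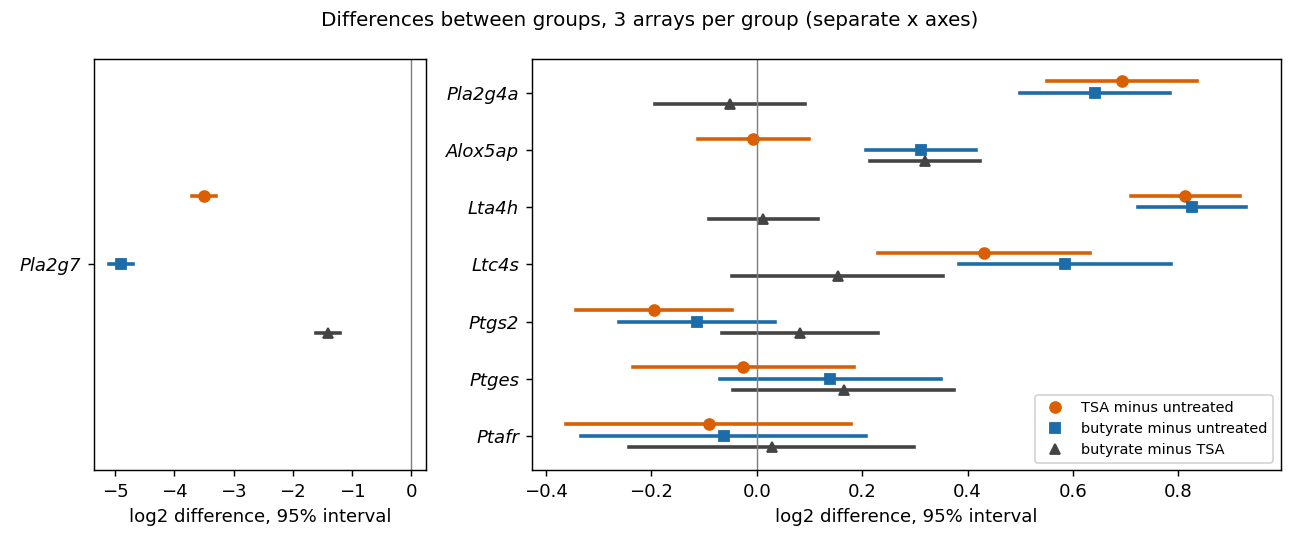
Log2 difference between groups for each measured gene, as points with 95% intervals from limma, with Pla2g7 on its own x axis because of its size. Pla2g7 was chosen for its fall, so its intervals are a description and no test. Both treatments put Pla2g4a, Lta4h and Ltc4s to the right of 0, and Alox5ap lies right of 0 with butyrate only, a rise that turns below 0 when scaled to spike-ins.

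Across the 7 measured members other than Pla2g7, 3 rose with TSA, where 26.3% of all genes were called higher, and 1 fell, where 21% were called lower. With butyrate 4 rose and 0 fell in limma's test, also at an unadjusted p under 0.05, where 33.6% and 24.8% of all genes were called higher and lower. Between butyrate and TSA 1 was higher and 0 lower, against 15.9% and 20% of genes, and at an unadjusted p under 0.05 the counts were again 1 and 0. On the hybridization scale the counts higher and lower were 2 and 3 with butyrate and 0 and 6 between the treatments. Of all 12393 genes, 932 were higher and 8417 lower on that scale with butyrate, and 93 and 10047 between the treatments. On the poly-A scale the members had 1 and 1 with butyrate and 0 higher between the treatments. There 548 of all genes were higher and 3581 lower with butyrate, and 19 were higher between the treatments. On the deposited scale 47.3% of genes were called for TSA, 58.4% for butyrate and 35.9% between the treatments. A call of a single gene was thus common in these data. Groups stood apart without overlap for 4 of 7 members in each comparison with untreated, against 54.9% of genes for TSA and 62.7% for butyrate, and for 1 of 7 between treatments, against 50.3%. The median differences over the 7 were -0.01, 0.31 and 0.08, beside 0.03, 0.08 and 0.03 over all genes. None of the 7 reached 2-fold in any comparison, while 5.41%, 7.33% and 0.379% of all genes were called at that size. TSA and butyrate share the untreated arrays as their control, so their agreement in direction is not independent.

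The pathway's other genes were taken from a list of 89 symbols, of which 72 were measured. With TSA 15 rose and 15 fell, and with butyrate 17 rose and 16 fell, with median differences of -0.03 and 0.02. Between butyrate and TSA 14 were higher and 11 lower, beside 15.9% and 20% of all genes. On the hybridization scale the butyrate counts were 7 higher and 56 lower, beside 932 and 8417 of all 12393 genes. On the poly-A scale, whose spike-ins varied most between arrays, the TSA calls of Plaat3, Pafah1b2, Pafah1b3, Pafah2, Alox15, Tbxas1, Ltb4r1, Anxa1 and Cotl1, given below, were lost (adjusted p from 0.0785 to 0.890). On the hybridization scale those of Pafah1b2, Ltb4r1, Cotl1 and Acsl4 were lost (adjusted p from 0.0649 to 0.278), and that of Acsl4 was lost on the poly-A scale too. On the deposited scale the shares called, 30 and 33 of 72, were no larger than the 47.3% and 58.4% of all genes.

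**Figure D4:**
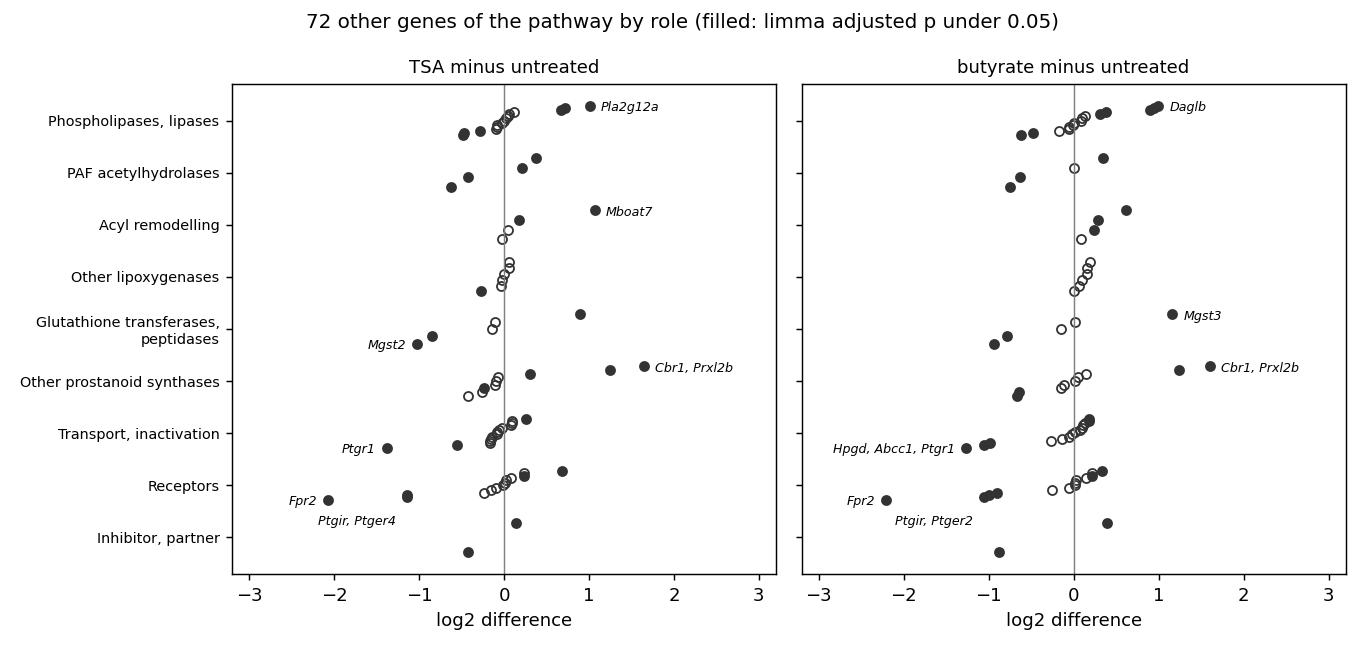
Log2 difference from untreated for the 72 other measured genes of the pathway, grouped by role, with TSA on the left and butyrate on the right; filled points were called by limma and open points were not. Names mark called genes beyond 0.95, with Prxl2b at 1.65 and 1.60 and Fpr2 at -2.08 and -2.21 the outermost.

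The intracellular PAF acetylhydrolases, relatives in function of Pla2g7, had differences of -0.63 to 0.37 with TSA and -0.75 to 0.35 with butyrate. Of these 4, 2 fell with both treatments, where 21% of all genes fell with TSA and 24.8% with butyrate. With TSA 2 rose and with butyrate 1, where 26.3% and 33.6% of all genes rose. Pafah1b1, the regulatory subunit known as LIS1, fell by 0.63 ± 0.054 with TSA (adjusted p = 3.77e-06) and by 0.75 ± 0.054 with butyrate (adjusted p = 8.37e-07). Its other 3 probe sets had -0.27, -0.43 (not called) and -0.38 with TSA, and -0.28, -0.057 (not called) and -0.22 with butyrate. The catalytic subunit Pafah1b3 fell by 0.42 (adjusted p = 0.000493) and 0.63 (adjusted p = 2.40e-05). Pafah2 rose by 0.37 with TSA (adjusted p = 0.00266) and by 0.35 with butyrate (adjusted p = 0.00362), although the butyrate value turned to -0.067 and -0.0066 on the hybridization and poly-A scales. Pafah1b2, the other catalytic subunit, was called with TSA only (0.22, adjusted p = 0.0115), and its 3 dimmer probe sets had -0.07 to 0.08 and were not called.

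Among 15 phospholipases and lipases, 3 rose and 3 fell with TSA, and 5 rose and 2 fell with butyrate, where 26.3% and 21% of all genes rose and fell with TSA and 33.6% and 24.8% with butyrate. The secreted phospholipase Pla2g12a rose by 1.02 ± 0.066 with TSA (2.02-fold, adjusted p = 5.57e-07) and 0.90 with butyrate (adjusted p = 1.02e-06). The lysosomal phospholipase Pla2g15 rose by 0.72 (adjusted p = 5.78e-05) and 0.94 (adjusted p = 6.16e-06), and its dimmer probe set had 0.14 (adjusted p = 0.155) and 0.21 (adjusted p = 0.0321). Daglb, which makes the endocannabinoid that monoacylglycerol lipase splits to arachidonic acid, rose by 0.66 (adjusted p = 3.09e-06) and 0.997 (adjusted p = 1.27e-07). Plaat3, a phospholipase first described in fat tissue, fell by 0.29 (adjusted p = 0.000763) and 0.62 (adjusted p = 2.11e-06). Pla2g4f, dim at an untreated level of 4.46, had -0.48 (adjusted p = 0.000738) and -0.47 (adjusted p = 0.000764). Of 4 genes that return fatty acids to phospholipids, Mboat7, which puts arachidonic acid into phosphatidylinositol, rose by 1.06 ± 0.046 with TSA (2.09-fold, adjusted p = 4.35e-08) and by 0.62 with butyrate (adjusted p = 1.06e-06), a call lost on the poly-A scale (0.27, adjusted p = 0.282). Lpcat3, which restores arachidonic acid to phosphatidylcholine, had 0.05 with TSA (adjusted p = 0.600) and rose by 0.28 with butyrate (adjusted p = 0.00410), which turned to -0.13 and -0.071 on the hybridization and poly-A scales. Acsl4, the arachidonate-preferring acyl-CoA ligase, was called in its brightest probe set with TSA (0.18, adjusted p = 0.0283) and butyrate (0.24, adjusted p = 0.00605). Its dimmer probe sets had -0.52 (adjusted p = 0.00384) and -0.17 (adjusted p = 0.0649) with butyrate, and -0.14 and -0.012, not called, with TSA. With butyrate the mean of its 3 probe sets had -0.15 and the spike-in scales -0.18 and -0.12. The TSA call was lost on the hybridization scale (0.16, adjusted p = 0.126) and without untreated replicate 2, TSA replicate 1 or TSA replicate 3.

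Further enzymes of the leukotriene branch moved apart from each other. Microsomal glutathione transferases are relatives of leukotriene C4 synthase and FLAP. Mgst2, which can make leukotriene C4, fell by 1.03 ± 0.079 with TSA (2.04-fold, adjusted p = 1.91e-06) and by 0.79 with butyrate (adjusted p = 1.14e-05). Mgst1 fell by 0.84 (adjusted p = 1.46e-06) and 0.94 (adjusted p = 5.28e-07), whereas Mgst3 rose by 0.90 (adjusted p = 1.43e-07) and 1.16 (adjusted p = 1.75e-08). The dim second probe sets of Mgst1 and Mgst3, with untreated levels of 4.63 and 4.41, were not called with either treatment (0.079 and 0.11 for Mgst1, 0.11 and 0.16 for Mgst3). Of the 6 other lipoxygenases, 1 fell with TSA, Alox15 by 0.27 (adjusted p = 0.0107), where 21% of all genes fell. With butyrate, where 58.4% of all genes were called, 0 of 6 were called in limma's test, also at an unadjusted p under 0.05. Alox15 had 0.06 with butyrate (adjusted p = 0.516), which turned to -0.36 on the hybridization scale (adjusted p = 0.00361). Abcc1, the exporter of leukotriene C4, fell by 0.55 with TSA (adjusted p = 1.03e-05) and by 1.05 ± 0.053 with butyrate (2.07-fold, adjusted p = 7.20e-08).

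Among 9 other prostanoid synthases, 3 rose and 1 fell with TSA and 2 rose and 2 fell with butyrate. Of all genes, 26.3% rose and 21% fell with TSA, and 33.6% rose and 24.8% fell with butyrate. Prxl2b, which can reduce prostaglandin H2 to prostaglandin F2-alpha, rose by 1.65 ± 0.065 with TSA (3.14-fold, adjusted p = 2.54e-08) and by 1.60 ± 0.065 with butyrate (3.04-fold, adjusted p = 1.63e-08). Its arrays read 6.58, 6.39 and 6.62 untreated, 8.21, 8.13 and 8.20 with TSA, and 8.13, 8.17 and 8.09 with butyrate. The treated groups overlapped and stood far above the untreated one. Cbr1, a carbonyl reductase that can convert prostaglandin E2, rose by 1.25 ± 0.11 (adjusted p = 4.55e-06) and 1.24 ± 0.11 (adjusted p = 3.81e-06). Tbxas1, thromboxane synthase, fell by 0.23 with TSA (adjusted p = 0.00289) and had -0.12 with butyrate (adjusted p = 0.0731). The butyrate value was called among genes above the median level (adjusted p = 0.0312) and, at -0.53 (adjusted p = 1.00e-05) and -0.47 (adjusted p = 0.0433), on the hybridization and poly-A scales. Hpgds, the haematopoietic prostaglandin D synthase, had -0.43 ± 0.17 with TSA (adjusted p = 0.0684), a value called without TSA replicate 1 (-0.60, adjusted p = 0.0127) or butyrate replicate 3 (adjusted p = 0.0426), on the hybridization scale (-0.44, adjusted p = 0.0114) or with a trend in the spread (adjusted p = 0.0267), and fell by 0.64 with butyrate (adjusted p = 0.00928).

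Of 14 genes of transport and inactivation, 1 rose and 2 fell with TSA, and 2 rose and 3 fell with butyrate. Of all genes, 47.3% were called with TSA and 58.4% with butyrate. Hpgd, the dehydrogenase that starts breakdown of prostaglandin E2, read 8.52, 8.62 and 8.47 untreated, 8.38, 8.37 and 8.35 with TSA, and 7.26, 7.15 and 7.39 with butyrate. The butyrate arrays stood far below the others, and the TSA arrays just below the untreated. Hpgd fell by 1.27 ± 0.067 with butyrate (2.41-fold, adjusted p = 9.18e-08) and butyrate minus TSA was -1.10 ± 0.067 (2.15-fold lower, adjusted p = 7.49e-06). The TSA difference of -0.17 ± 0.067 was not called (adjusted p = 0.0661) but was without butyrate replicate 2 (adjusted p = 0.0406) or replicate 3 (adjusted p = 0.0380). It was also called under renewed quantile normalization (adjusted p = 0.0413). Its dimmer probe set had 0.15 with TSA (adjusted p = 0.285) and -0.26 with butyrate (adjusted p = 0.0502). Ptgr1, the reductase that inactivates leukotriene B4 and acts after Hpgd on prostaglandins, read 10.78, 10.76 and 10.68 untreated, 9.43, 9.34 and 9.31 with TSA, and 9.80, 9.78 and 9.69 with butyrate. It fell by 1.38 ± 0.055 with TSA (2.61-fold, adjusted p = 2.66e-08) and by 0.99 ± 0.055 with butyrate (1.98-fold, adjusted p = 1.35e-07), and butyrate lay 0.40 above TSA (adjusted p = 0.000428). Cyp4f18, which hydroxylates leukotriene B4, had -0.14 with TSA (adjusted p = 0.0899) and rose by 0.18 with butyrate (adjusted p = 0.0311), but turned to -0.23 and -0.17 on the hybridization and poly-A scales. The call of Cyp4f18 was lost without untreated replicate 1 (adjusted p = 0.105), untreated replicate 2 (0.0585) or butyrate replicate 1 (0.102).

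Of 13 eicosanoid receptors, 3 fell and 2 rose with TSA, and 4 fell and 2 rose with butyrate, beside 47.3% and 58.4% of all genes called in either direction. Ptger4, the EP4 receptor for prostaglandin E2 that is known to act in DC migration, read 11.40, 11.45 and 11.42 untreated, 10.27, 10.28 and 10.31 with TSA, and 10.47, 10.52 and 10.57 with butyrate, with no overlap. It fell by 1.14 ± 0.046 with TSA (2.20-fold, adjusted p = 2.96e-08) and by 0.90 ± 0.046 with butyrate (1.87-fold, adjusted p = 7.74e-08), and a second probe set fell by 1.44 and 1.29. Ptger2, the EP2 receptor, had -0.16 with TSA (adjusted p = 0.207; -0.25, adjusted p = 0.0488, without TSA replicate 1) and fell by 0.998 ± 0.094 with butyrate (adjusted p = 6.43e-06). Butyrate minus TSA was -0.84 ± 0.094 for Ptger2 (1.79-fold lower, adjusted p = 0.000127). Its arrays read 7.45, 7.46 and 7.53 untreated, 7.50, 7.32 and 7.16 with TSA, and 6.47, 6.35 and 6.64 with butyrate, so that TSA overlapped untreated and butyrate lay below both. Ptger3, the EP3 receptor, rose with TSA by 0.68 ± 0.097 (1.61-fold, adjusted p = 0.000163), had 0.21 with butyrate (adjusted p = 0.0812), and butyrate minus TSA was -0.47 (adjusted p = 0.00433). Its dim second probe set, with an untreated level of 3.99, had 0.06 for TSA (adjusted p = 0.535) and 0.26 for butyrate (adjusted p = 0.00614). There only butyrate minus TSA went the other way, at 0.21 (adjusted p = 0.0367).

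Ptgir, the prostacyclin receptor, fell by 1.14 ± 0.095 with TSA (2.21-fold, adjusted p = 3.10e-06) and by 1.06 ± 0.095 with butyrate (2.08-fold, adjusted p = 4.41e-06). Fpr2, a receptor for lipoxin A4 and formyl peptides that is also found on phagocytes, read 7.93, 8.03 and 7.53 untreated, 5.72, 5.82 and 5.72 with TSA, and 5.74, 5.85 and 5.27 with butyrate. Its falls were 2.08 ± 0.16 (4.22-fold, adjusted p = 1.52e-06) and 2.21 ± 0.16 (4.63-fold, adjusted p = 7.61e-07). Most macrophage and neutrophil markers given above were lower too, though 2 of 9 neutrophil markers rose with butyrate. The part of these cells in the Fpr2 levels was not tested. Ltb4r1, the high-affinity receptor for the leukotriene B4 that Lta4h makes, read 6.63, 6.77 and 6.82 untreated, 6.99, 7.03 and 6.90 with TSA, and 7.12, 7.13 and 6.95 with butyrate, and every treated array lay above the untreated ones. It rose by 0.33 ± 0.071 with butyrate (adjusted p = 0.00241), a value that turned to -0.084 and -0.024 on the hybridization and poly-A scales. With TSA it rose by 0.23 ± 0.071 (adjusted p = 0.0198), and lost the call without untreated replicate 1 (adjusted p = 0.0751), TSA replicate 1 (0.0571) or TSA replicate 2 (0.0730). The TSA call was also lost under renewed quantile normalization (0.20, adjusted p = 0.0510). Cysltr1, a receptor for the cysteinyl leukotrienes, had 0.24 with TSA (adjusted p = 0.187; 0.36, adjusted p = 0.0498, without TSA replicate 3) and -0.26 with butyrate (adjusted p = 0.124; -0.39, adjusted p = 0.0289, without untreated replicate 3). The butyrate value was called on the hybridization scale (-0.68, adjusted p = 2.49e-05), on the poly-A scale (-0.61, adjusted p = 0.00563) and as the mean of its probe sets (-0.45, adjusted p = 0.000948). For Cysltr1 butyrate minus TSA was -0.50 (adjusted p = 0.0171), and in its dimmer probe set butyrate fell by 0.63 from untreated (adjusted p = 7.84e-05).

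**Figure D5:**
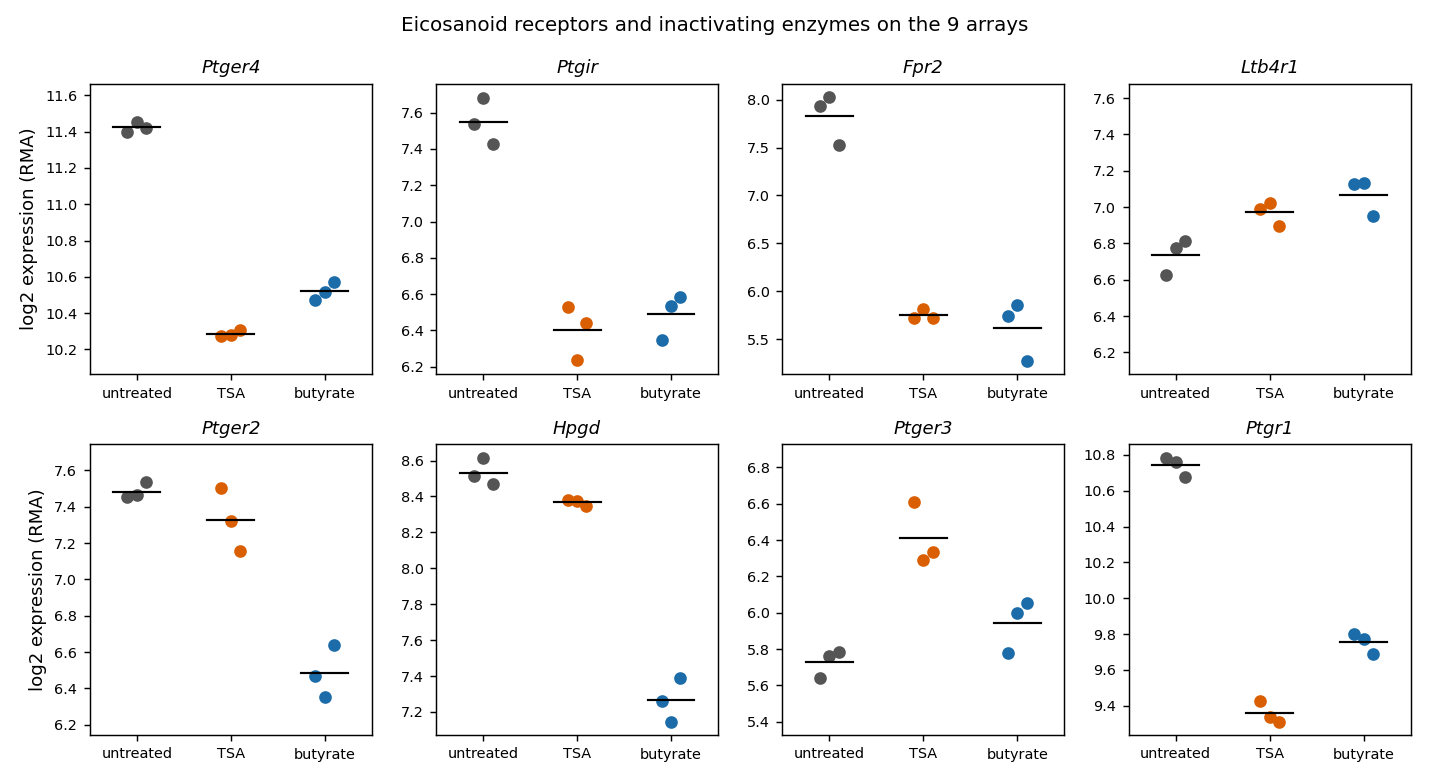
Log2 expression of 6 eicosanoid receptors and the inactivating enzymes Hpgd and Ptgr1, with 1 point per array and a bar at each group's mean; panels have separate y axes. Ptger4, Ptgir, Fpr2 and Ptgr1 are lower with both treatments, Ptger2 and Hpgd are far lower with butyrate than with TSA, and the rise of Ltb4r1 with butyrate turns below 0 on the spike-in scales.

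Anxa1, the annexin that restrains cytosolic phospholipase A2, fell by 0.43 ± 0.045 with TSA (adjusted p = 1.81e-05) and by 0.87 ± 0.045 with butyrate (1.83-fold, adjusted p = 7.91e-08), and butyrate minus TSA was -0.45 (adjusted p = 7.19e-05). Its arrays read 11.25, 11.33 and 11.29 untreated, 10.90, 10.84 and 10.84 with TSA, and 10.41, 10.40 and 10.43 with butyrate, with no overlap. Cotl1, which encodes a partner of 5-lipoxygenase, rose by 0.39 ± 0.047 with butyrate (adjusted p = 4.19e-05), a value of -0.023 on the hybridization scale. With TSA it had 0.14 (adjusted p = 0.0270), a call lost without untreated replicate 1, 2 or 3 or TSA replicate 1 or 2 (adjusted p from 0.0506 to 0.0886) and as the mean of all its probe sets (0.035, adjusted p = 0.597); the other 4 had -0.011 to 0.027 and were not called. Read from their brightest probe sets, the genes with unrounded differences of at least 0.5 between butyrate and TSA, a limit chosen after their values were seen, were Hpgd, Ptger2, Abcc1 and Cbr3, with Cysltr1 just short of it at -0.498 (-0.68 in its dimmer probe set). Cbr3, a carbonyl reductase, had -0.11 with TSA (adjusted p = 0.162), fell by 0.66 with butyrate (adjusted p = 4.60e-06), and had -0.55 between butyrate and TSA (adjusted p = 0.000108). All 4 were lower with butyrate, in a comparison where 20% of all genes were called lower and 15.9% higher.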

How the data were processed

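Total RNA from 9 samples (3 untreated, 3 TSA, 3 butyrate) was measured on 1-colour arrays. The authors deposited log2 expression values, which per the submitters' processing notes come from RMA (version not given in the sources used here). Of 22690 probe sets, 64 were controls, 20380 had 1 symbol, 691 several and 1555 none here. The gene identifiers of 20351 matched the GRCm38.p6 table. Each of 12393 genes was read from its brightest probe set over all arrays. In R 4.3.3, lmFit and eBayes of limma 3.58.1 fitted 1 mean per group over the 9 arrays together (6 residual and 3.9 prior degrees of freedom), with Benjamini-Hochberg adjustment over all genes, or over 22626 probe sets where several probe sets of a gene are given. The script was tested on simulated data with 200 changed genes. Members and lists were chosen with earlier results of these data known. Named were all members, up to 4 called genes per role and treatment with the largest changes, enzymes and receptors next to the members, and the 5 genes nearest to Pla2g7. Of these, Ptges2 and Zadh2, called with TSA only (0.30 and 0.26), are not described further. Marker lists held 101 symbols, 86 measured. Alternatives covered scaling, dim genes, probe sets, spread model, replicate block, thresholds and single arrays. Promoter sequences are RefSeq's (GRCm38.p6), matched for 9 of 10 members by symbol; Alox5ap was not matched. Depth does not apply to arrays; their number limits precision.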

Additional observations from a re-analysis of the deposited data

How the results depend on the processing

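Under renewed quantile normalization, a trend in the spread, the fit over all probe sets and the fit of only the 6 arrays compared, the 7 members other than Pla2g7 kept their side of the threshold, and every called difference kept its direction. Renewed quantile normalization turned 3 uncalled differences, Alox5ap with TSA to 0.025 and, between treatments, Pla2g4a to 0.012 and Ptafr to -0.039. Under it, Ltb4r1 lost its TSA call (adjusted p = 0.0510) and Hpgd was called with TSA (adjusted p = 0.0413). With hybridization spike-ins and butyrate against untreated, the values turned to -0.10 (Alox5ap), -0.28 (Ptges), -0.067 (Pafah2), -0.13 (Lpcat3), -0.18 (Acsl4), -0.36 (Alox15), -0.23 (Cyp4f18), -0.084 (Ltb4r1) and -0.023 (Cotl1). Against TSA they turned to -0.082 (Alox5ap), -0.39 (Lta4h), -0.25 (Ltc4s), -0.32 (Ptgs2), -0.24 (Ptges) and -0.37 (Ptafr). With poly-A spike-ins the butyrate values turned to -0.043 (Alox5ap), -0.0066 (Pafah2), -0.071 (Lpcat3), -0.12 (Acsl4), -0.17 (Cyp4f18) and -0.024 (Ltb4r1), and Alox5ap against TSA to -0.0099. Uncalled values turned on the poly-A scale too, Ptges with butyrate to -0.22 and, against TSA, Lta4h to -0.32, Ltc4s to -0.17, Ptgs2 to -0.25, Ptges to -0.16 and Ptafr to -0.30. The mean of all probe sets turned Acsl4 with butyrate to -0.15. For Pla2g7 butyrate read -5.32 and -5.26 on the 2 scales, and -1.80 and -1.73 against TSA. These scales move the median of all genes with butyrate to -0.33 and -0.27; why the spike-ins differ was not tested.

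Counts of calls are given as higher and lower. On the hybridization scale the members had 0 lower with TSA, 2 and 3 with butyrate and 0 and 6 between treatments; the wider list had 7 and 56, and 0 and 54; all genes had 932 and 8417, and 93 and 10047. The share of calls that were higher went from 57.5% to 9.97% with butyrate and from 44.2% to 0.917% between treatments. On the poly-A scale TSA gave 0 members lower, 8 wider genes higher and 1180 and 1349 of all genes, with 46.7% of calls higher against 55.6%. Butyrate gave 1 and 1 members, 6 wider genes and 548 of all genes higher (13.3% of calls), and between treatments 0 members, 0 wider genes and 19 of all genes were higher (0.678% of calls). Among genes above the median level, butyrate raised 10 wider genes and 2472 of all, and 1284 genes were higher than with TSA. At an adjusted p under 0.01, TSA gave 0 members lower and 931 genes were higher with butyrate than with TSA. With at least 2-fold, members had 0 and 0 with TSA, 0 higher with butyrate and 0 higher between treatments; the wider list had 4 and 5, 3 and 4, and 0 and 1; all genes had 265 and 406, 339 and 570, and 11 and 36. The cause was not tested.

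The labels state no pairing of the samples. Deviations of same-numbered arrays were correlated at -0.12 to 0.21 and those of differently numbered arrays at -0.25 to 0.16. With 3 arrays per group these correlations cannot settle whether same-numbered arrays share a source. With the replicate block 0 members were lower with TSA (Ptgs2, adjusted p = 0.0607), Cotl1 with TSA (0.0546) and Cyp4f18 with butyrate (0.0511) lost their calls, and Hpgds with TSA gained one (0.0498). Leaving out 1 array at a time gave 3 to 3 higher and 0 to 1 lower members with TSA, 4 to 5 and 0 to 0 with butyrate, and 1 to 2 and 0 to 0 between treatments. The wider list had 12 to 15 and 15 to 18, 15 to 19 and 16 to 17, and 11 to 14 and 8 to 11. All genes had 2965 to 3290 and 2366 to 2598, 3685 to 4149 and 2874 to 3056, and 1396 to 2009 and 2001 to 2474.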
